A study of Mus musculus with 4 samples.

Results

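A total of 2444 regions carried a peak of trimethylated lysine 4 of histone H3 (H3K4me3) in all 4 libraries of the study while none of their peaks reached the score ceiling of 3100. They were found by joining the peaks of the 4 lists into regions wherever peaks overlapped by at least 1 bp, which gave 18786 regions, and by keeping those with a peak in every list and a highest score under 3100. The 2444 regions made up 13.01% of all regions and 19.88% of the 12294 regions shared by the 4 lists (95% Wilson interval 19.18 to 20.59%, counting error only). The remaining 9850 shared regions reached or passed the ceiling in at least 1 list. From 8874 to 9636 peaks of a list scored exactly 3100. Scores pile up there but do not end there, as far fewer peaks scored higher, up to 3233.06. The highest score was exactly 3100 at 9626 of the 9850 regions and above it at 224. The score is the peak caller's own, by convention a negative multiple of the log10 of a peak's p-value. The regions were chosen by these scores, so score values and score ranks below are a description of the regions chosen and carry no test.

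The libraries came from primary macrophages grown from mouse bone marrow and taken on day 7 of differentiation, from animals of a mixed background (94% C57BL/6, 6% 129/Ola). By their genotype labels the cells were heterozygous (Wbp7+/-) or lacked both functional copies of Wbp7 (Wbp7-/-), while other labels of the same samples name the gene MLL2 (titles) or MLL4 (sources). For both genotypes there was an untreated library and one labelled as 4 h of lipopolysaccharide (LPS) at 10 ug/ml. LPS is part of the outer membrane of Gram-negative bacteria and a strong activator of macrophages. Wbp7-/- cells are compared with heterozygous and not with wild-type cells. All 4 groups held 1 library, so no p-value was computed. Neither genotype nor LPS treatment can be told apart from any other difference between the mice, cultures or libraries. The number of animals behind a library is not given in the sources used here. The header of the LPS-treated Wbp7+/- list names 24 h, against 4 h in its sample label, and how long that library was treated is thus in doubt. No annotation of mm9, the build of the lists, was used, so regions are named by position, and the Wbp7 locus, macrophage markers and genes were not analysed here.

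H3K4me3 is laid down on nucleosomes around transcription start sites, most broadly over active promoters rich in CpG, and in narrower stretches at weakly active promoters and some enhancers. The product of Wbp7, known too as Kmt2b, is a methyltransferase that places the mark, alongside related enzymes that share many core subunits with it. In macrophages LPS activates the NF-kB and interferon pathways, and H3K4me3 spreads at many genes that are switched on.

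The lists held from 14599 to 17316 peaks and covered from 33.47 to 34.93 Mb. Read numbers were not at hand, so the depth behind a score is unknown. Peaks in the 2444 regions were from 14.8 to 17.4% of the peaks of a list but only from 8.8 to 9.7% of its covered length. Scores grow with depth, so raw scores of different libraries, where set side by side below, show what the lists hold and not a difference in H3K4me3. Libraries are compared by ranks among the 2444 regions of 1 list and by peak widths, which can also move with depth.

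The shared regions below the ceiling spanned almost the whole range of scores and were narrower than those at it. In untreated Wbp7+/- cells their scores ranged from 51.07 to 3096.78 with a median of 594.15, and in LPS-treated Wbp7+/- cells from 50.46 to 3084.23 with a median of 464.73. In Wbp7-/- cells the scores ran from 50.03 to 3098.92 untreated and from 50.01 to 3096.76 after LPS, with medians of 343.72 and 313.24. The highest of a region's 4 scores came from untreated Wbp7+/- cells at 998 regions, from LPS-treated Wbp7+/- cells at 550, from untreated Wbp7-/- cells at 611 and from LPS-treated Wbp7-/- cells at 285. The untreated Wbp7+/- library thus most often set whether a region stayed below the ceiling, which its unknown depth can affect. All 4 scores were 500 or more at 524 regions and 1000 or more at 212, whereas 747 regions (30.6%) scored under 100 in at least 1 list and 18 did so in all 4. Within a region the highest score was 3.3 times the lowest at the median and 52.8 times at most.

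Summed peak widths, the length covered by the peaks of 1 list in a region, had medians of 1185 and 1144 bp in untreated and LPS-treated Wbp7+/- cells and of 1179 and 1160.5 bp in Wbp7-/- cells. The medians of the 4 libraries thus lay close together, unlike those of the scores. At shared regions at the ceiling the medians were 2481 and 2437 bp in Wbp7+/- and 2610 and 2581.5 bp in Wbp7-/- cells. By the mean width over the 4 lists, 1404 of the 2444 regions measured from 1000 to under 2000 bp, 741 from 500 to under 1000 bp, 52 less than that, 213 from 2000 to under 3000 bp and 34 more. Score and width were related within each list, with a Spearman correlation across the 2444 regions of 0.44 and 0.48 in untreated and LPS-treated Wbp7+/- cells and of 0.59 and 0.56 in Wbp7-/- cells. This is a description across regions that share a library and is given without a p-value.

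**Figure D1:**
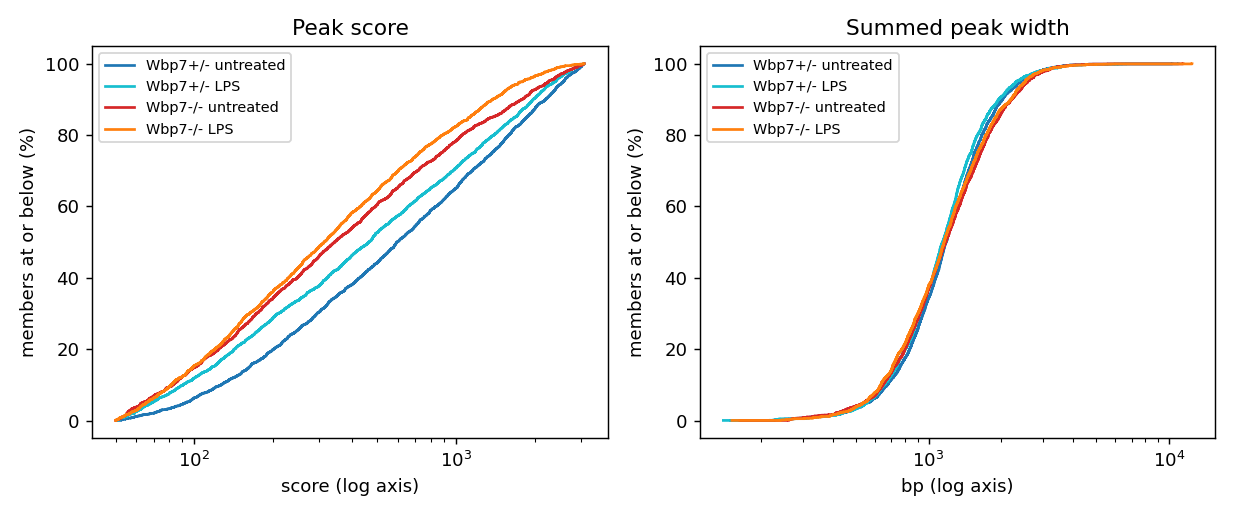
Cumulative share of the 2444 shared regions below the ceiling (y axis, percent) against peak score (left, log axis) and summed peak width in bp (right, log axis), with 1 line per library. The score lines, whose heights move with the unknown depth, have medians from 313.24 to 594.15, and the width lines nearly coincide, with medians from 1144 to 1185 bp.

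Regions just below the limit of 3100 were slightly narrower than shared regions that reached it in 1 list only. There were 48 regions with a highest score from 3000 to under 3100, with median widths from 1496 to 1601 bp in the 4 lists. Outside the limit, 337 shared regions reached the ceiling in 1 list only, with median widths from 1624 to 1659 bp and a median lowest score of 966.2. As scores pile up at 3100, how close these lay to the limit is not known. The region nearest below the ceiling was chr5:122593604-122596984 (mm9, positions counted from 1). It scored 1784.34 and 1172.13 in untreated and LPS-treated Wbp7+/- cells and 3098.92 and 1945.73 in Wbp7-/- cells, so that only untreated Wbp7-/- cells brought it close to the limit. The next was at chr11:60035276-60036998, with 3096.78 and 1864.12 in Wbp7+/- and 1924.47 and 863.03 in Wbp7-/- cells. The third, at chr15:79523722-79525753, was instead highest after LPS, with 2628.19 and 3045.88 in Wbp7+/- and 1513.41 and 3096.76 in Wbp7-/- cells. At the other end, the weakest region, at chr19:32254273-32256435, scored from 52.15 to 63.89 in the 4 lists although its peaks were 719 to 1415 bp wide. The 10 weakest regions all scored under 87 in every list, close to the lowest score of any peak, 50.

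The widest of these regions differed in how their width varied between libraries. The region at chr15:76002578-76015133 was covered over 10334 and 10957 bp in untreated and LPS-treated Wbp7+/- cells and over 11469 and 12501 bp in Wbp7-/- cells. It was called as 6 separate peaks in untreated Wbp7+/- cells, as 1 peak in the other Wbp7+/- library, and in Wbp7-/- cells as 1 untreated and 2 after LPS. Its scores were 876.41 and 597.73 in Wbp7+/- against 2979.31 and 2007.69 in Wbp7-/- cells, so that it ranked higher in both Wbp7-/- libraries. The region at chr4:141027562-141033794 was broader in Wbp7+/- cells, with 5943 and 6109 bp against 3439 and 3256 bp in Wbp7-/- cells. The region at chr1:132977955-132984756 was broader after LPS, covering 2589 bp before and 6360 bp after treatment in Wbp7+/- cells and 2488 and 5962 bp in Wbp7-/- cells. The 10 widest lay at a median of 1.96 kb from the nearest shared region at the ceiling, against 24.6 kb for all 2444 regions.

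Regions below the ceiling lay nearer to strong regions than strong regions lay to each other. A shared region at the ceiling stood within 5 kb of 439 of the 2444 (18.0%, 16.5 to 19.5), with a median distance of 24.6 kb. Of the 9850 ceiling regions, 1006 (10.2%, 9.6 to 10.8) had another ceiling region within 5 kb, with a median distance of 34.59 kb. Regions found in only 1 to 3 lists resembled the 2444 at this limit, with 19.0% (18.0 to 19.9) within 5 kb. Their median distance of 29.19 kb lay between those of the other classes. Regions of a kind are not independent along a chromosome, so these intervals cover counting error only.

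The 2444 regions lay on chromosomes 1 to 19 and X, where they made up from 17.3 to 25.1% of the shared regions. The share was highest on chromosome 13, at 132 of 526 (25.1%, 21.6 to 29.0), followed by chromosome 3 at 23.2% (20.0 to 26.8) and chromosome 17 at 23.1% (20.0 to 26.5). It was lowest on chromosome 9, at 111 of 640 (17.3%, 14.6 to 20.5), and stood at 18.4% on the X chromosome (14.8 to 22.7). The intervals of chromosomes 13, 3 and 17 lie above the overall 19.88%, without correction for the 20 chromosomes compared. Runs of neighbours no more than 20 kb apart were rare, with 5 runs of 4 or more regions. A pair of these runs, of 5 regions each, lay close together on chromosome 13, from 21806645 to 21847864 and from 22117867 to 22136960. Ceiling regions lay between their members, 3 in the first run and 1 in the second. The third run of 5, at chr5:115965533-115993796, held no ceiling region.

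Peaks overlapped less closely at these regions than at strong ones. Among regions with a single peak in both lists compared, the part common to both peaks was 84.9% of their joint length at the median between the 2 Wbp7+/- libraries and 83.7% between the 2 Wbp7-/- libraries. It was 81.0% between the genotypes in untreated cells and 79.0% in LPS-treated cells. At shared ceiling regions the corresponding values were 91.1, 91.8, 90.4 and 88.8%. In absolute terms the border moved about as far in both classes, by a median of 76 bp between the Wbp7+/- libraries at the 2444 regions and of 87 bp at ceiling regions.

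The main comparison asked how the order of these regions by H3K4me3 score differed without Wbp7. Each region was given its percentile rank by score among the 2444 regions of the same list, which does not depend on the overall height of the scores of a library. By score, the order was similar between treatments of 1 genotype and less so between genotypes. The Spearman correlation of scores across the 2444 regions was 0.86 between the Wbp7+/- libraries and 0.81 between the Wbp7-/- libraries, against 0.54 between the genotypes in untreated cells and 0.46 in LPS-treated cells. By width the gap was smaller. The correlation was 0.78 between the Wbp7+/- and 0.82 between the Wbp7-/- libraries, against 0.73 between the genotypes untreated and 0.66 after LPS. The median size of the difference in score rank was 16.3 percentile points between genotypes in untreated cells and 18.1 in LPS-treated cells. Between treatments it was 7.7 points in Wbp7+/- and 9.0 points in Wbp7-/- cells. All 4 ranks of a region lay within 10 points of each other at 209 regions, of which 102 had a mean rank at or above the percentile of 75, 50 one under 25 and 57 one in between. At 502 regions (20.5%) the ranks spanned more than 50 points.

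In both treatments, 601 regions ranked at least 10 percentile points lower in Wbp7-/- than in Wbp7+/- cells, which is 24.6% of the 2444 regions compared, and 639 (26.1%) ranked at least 10 points higher. These untreated and LPS-treated comparisons share no library. Differences of 10 points or more in opposite directions were seen at 34 and 40 regions. Genotype differences of untreated and LPS-treated cells had a Spearman correlation of 0.8 across the 2444 regions. With a shift of at least 20 points, 407 regions were lower and 367 higher in both treatments, and 4 and 1 moved in opposite directions. Among weak regions 10 points can be a small score difference. In LPS-treated Wbp7-/- cells the lowest 10% of scores ran from 50.01 to 81.32. Of the 814 regions of lowest mean rank, 152 ranked lower and 172 higher by 10 points in both treatments. Their genotype differences of any size had the same sign in both treatments at 72.0%. The share was 84.8% at the 815 regions of middle and 83.3% at the 815 of highest mean rank. Since ranks are relative, regions that rank lower are balanced by others that rank higher, and the counts give no net change of H3K4me3. The rule also leaves out any region that reached the ceiling in 1 list or lost its peak in another, so differences between genotypes of that kind are not among the 2444.

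**Figure D2:**
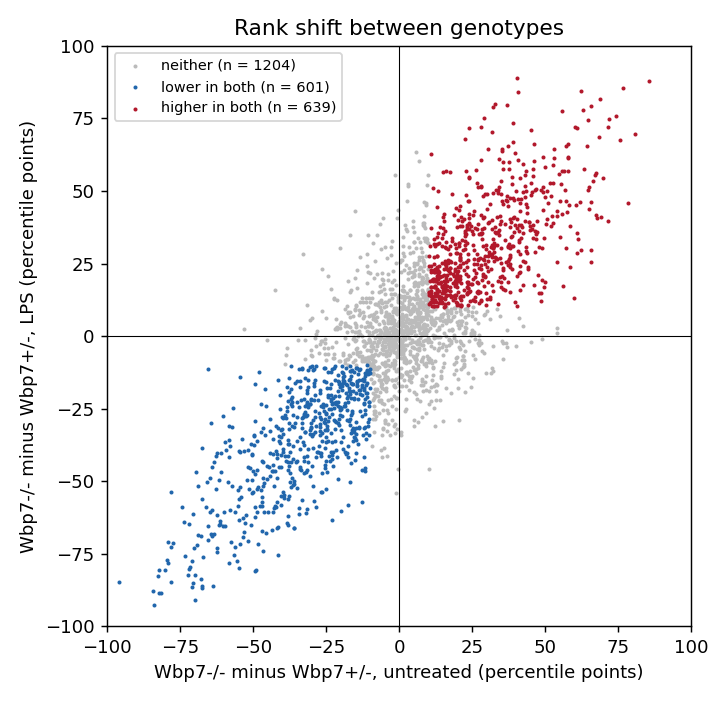
Difference in percentile rank by score between Wbp7-/- and Wbp7+/- cells for each of the 2444 regions (points), in untreated cells (x axis, percentile points) and in LPS-treated cells (y axis, percentile points). The 601 regions lower in both (blue) and the 639 higher in both (red) extend along the diagonal, and few points lie far from it.

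The regions that ranked lower in Wbp7-/- cells stood high in the order of Wbp7+/- cells, which their choice by rank difference favours. Their median score was 1208.9 untreated and 1153.9 after LPS in Wbp7+/- cells, against 172.2 and 173.2 in Wbp7-/- cells. Regions were ordered by the smaller of their 2 differences, that in untreated and that in LPS-treated cells, and gains and drops called largest, and widths called strongest, are largest by this measure. The largest drop was at chr11:98843234-98844571, which scored 2964.99 untreated and 2931.41 after LPS in Wbp7+/- cells and 56.16 and 97.53 in Wbp7-/- cells. It thus went from ranks of 98.7 and 99.3, near the top of the 2444 regions, to 2.6 and 14.6, with scores not far above 50, the lowest of any peak. Its peaks were 1338 and 1311 bp wide in Wbp7+/- and 693 and 637 bp wide in Wbp7-/- cells. The region at chr18:80243243-80244673 scored 1988.37 and 2204.80 in Wbp7+/- against 56.40 and 67.17 in Wbp7-/- cells. The region at chr8:13199699-13201499 scored 2842.81 and 3064.45 against 94.61 and 72.24. Both ranked at 13.5 or lower in Wbp7-/- cells.

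The next drops had the same form. Scores of 2899.45 and 2125.04 in Wbp7+/- and of 102.91 and 80.15 in Wbp7-/- cells were seen at chr2:94113012-94114412. At chr15:75472224-75473592 they were 2891.20 and 2690.59 against 104.28 and 78.57. Over the 10 largest drops, ranks lay from 81.2 to 99.9 in the Wbp7+/- libraries and from 0.8 to 15.7 in the Wbp7-/- libraries, with no overlap. The rule that picked them sets this separation. Their widths, which it did not use, were from 829 to 1801 bp in Wbp7+/- and from 473 to 1066 bp in Wbp7-/- cells, although width and score describe the same peaks. At the region at chr8:47771857-47772803 the scores of 1644.34 and 1476.81 compared with 52.57 and 53.11, while the untreated widths of 829 and 819 bp were nearly equal.

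The regions that ranked higher in Wbp7-/- cells were of lower score in Wbp7+/- cells, which their choice by rank difference likewise favours. Median scores were 377.5 untreated and 214.6 after LPS in Wbp7+/- cells and 803.6 and 567.9 in Wbp7-/- cells. The largest gain was at chr18:10893677-10895399, which scored 99.31 and 55.62 in untreated and LPS-treated Wbp7+/- cells and 1920.07 and 1326.12 in Wbp7-/- cells. Its peaks were 784 and 663 bp wide in Wbp7+/- and 1723 and 1602 bp wide in Wbp7-/- cells. The region at chr13:12566898-12568295 scored 203.77 and 85.46 in Wbp7+/- against 2515.69 and 1732.30 in Wbp7-/- cells.

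Further gains lay at chr6:125372098-125376200, with scores of 187.89 and 87.99 in Wbp7+/- and of 1958.02 and 1144.58 in Wbp7-/- cells, and widths of 1856 and 1318 bp against 4103 and 3242 bp. At chr17:28143642-28147379 the scores were 278.67 and 165.20 against 3059.72 and 2382.15. At chr9:102422661-102424134 they were 103.08 and 114.86 against 996.40 and 1191.96. Over the 10 largest gains, ranks lay from 0.4 to 28.2 in Wbp7+/- and from 70.2 to 99.9 in Wbp7-/- cells, a separation that the choice of the regions fixes.

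**Figure D3:**
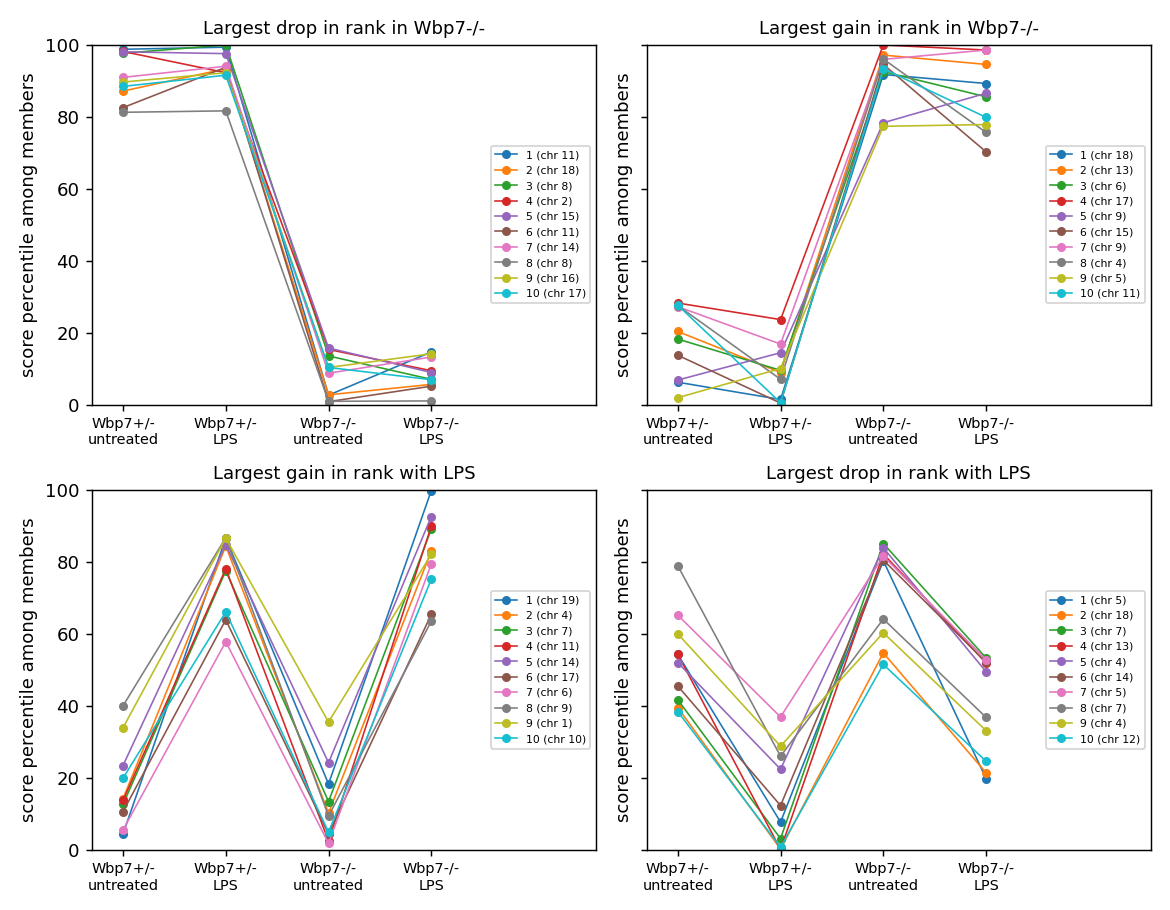
Percentile rank by score among the 2444 regions (y axis) in the 4 libraries (x axis) for the 10 regions with the largest drop and gain in Wbp7-/- cells (top) and the 10 with the largest gain and drop with LPS (bottom), 1 line per region with its order and chromosome. In the top panels the libraries of one genotype stand apart from those of the other. In the bottom panels both LPS libraries move the same way from their untreated partner, by less in the panel of drops. The choice of the regions sets these directions.

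Peak width moved with score rank, although both are read from the same peaks and libraries. At the 601 regions that ranked lower in Wbp7-/- cells, the median ratio of the Wbp7-/- to the Wbp7+/- width was 0.81 in untreated and 0.8 in LPS-treated cells, and 81.0 and 86.9% of these regions were narrower in Wbp7-/- cells. At the 639 that ranked higher the ratios were 1.21 and 1.28, and 86.5 and 87.5% were wider. The 1204 others had ratios of 1.02 and 1.01. Across all 2444 regions the median ratio was 1.024 untreated and 1.014 after LPS, so that narrowing at some regions stood against widening at others.

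Large changes of width with genotype were more frequent at these regions than at strong ones. A Wbp7-/- peak at least 1.5 times narrower in both treatments was found at 113 of the 2444 regions (4.62%, 3.86 to 5.53), against 2.11% of all 12294 shared regions and 1.49% of the ceiling regions (1.27 to 1.75). A Wbp7-/- peak at least 1.5 times wider in both was found at 96 (3.93%, 3.23 to 4.77), against 1.26% of all shared regions and 0.599% of the ceiling regions (0.465 to 0.772). Narrow peaks change by a larger factor for the same shift of a border, and this was not corrected for. When instead every shared region was ranked by width among all 12294, 134 of the 2444 regions (5.48%) dropped by 10 points or more in both treatments, against 5.69% of all shared regions, and 169 (6.91%) gained, against 5.52%. On that scale the share that dropped was close to that of all shared regions, and the share that gained was somewhat higher.

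The strongest narrowing was at chr7:147233368-147235931, with 2447 and 2286 bp in Wbp7+/- and 689 and 728 bp in Wbp7-/- cells. The region at chr7:31910010-31912773 went from 2764 and 1968 bp to 1034 and 736 bp, with scores of 2928.01 and 2599.1 against 248.9 and 114.96. The strongest widening was at chr10:19658901-19662390, where 1036 and 1097 bp in Wbp7+/- cells compared with 3201 and 3116 bp in Wbp7-/- cells. Its scores were 201.73 and 126.66 in Wbp7+/- and 366.59 and 388.53 in Wbp7-/- cells. At chrX:54555572-54558831, widths were 1092 and 855 bp in Wbp7+/- and 3260 and 2366 bp in Wbp7-/- cells.

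**Figure D4:**
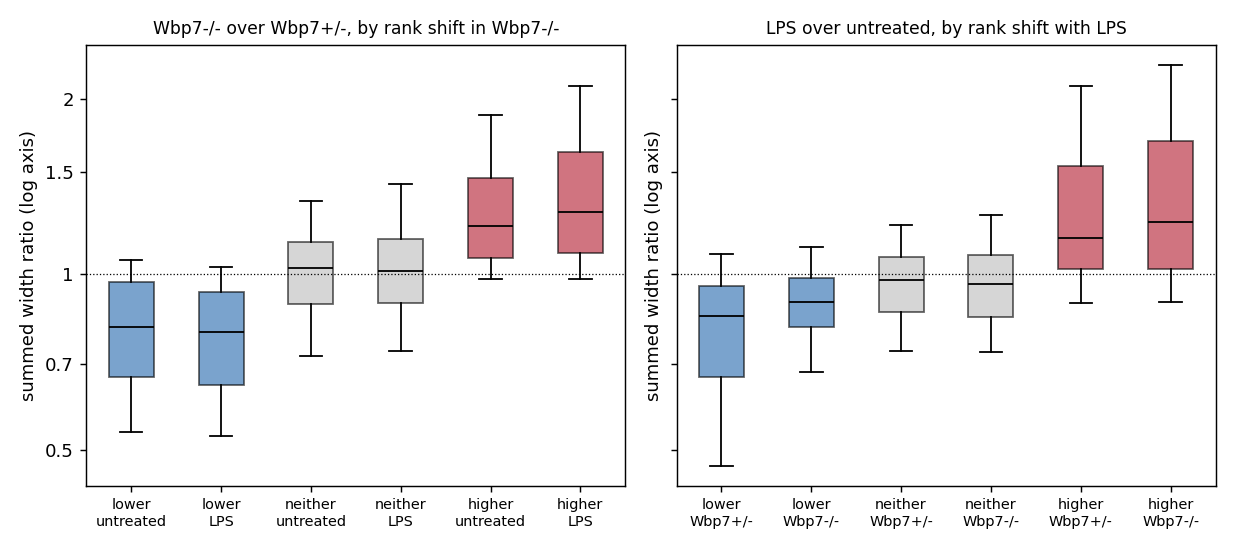
Ratio of summed peak widths (y axis, log axis) for regions that ranked lower, neither or higher by at least 10 percentile points in both comparisons, with Wbp7-/- over Wbp7+/- on the left and LPS over untreated on the right. Boxes show the median and quartiles over regions and whiskers the percentiles 10 and 90, and the medians go from 0.81 and 0.8 to 1.21 and 1.28 on the left and from 0.85 and 0.89 to 1.15 and 1.23 on the right.

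The genotype ranks were also counted by distance to strong regions, as a description of these 4 libraries with no test. Of the 439 regions within 5 kb of a ceiling region, 18.0% ranked lower in Wbp7-/- cells in both treatments and 30.8% ranked higher, beside 24.6 and 26.1% of all 2444. Of the 767 regions over 50 kb from one, 28.7% ranked lower and 23.2% higher. Widths of these sets had medians of 1258 bp near and 1128 bp far from ceiling regions in untreated Wbp7+/- cells and of 1359 and 1068 bp in untreated Wbp7-/- cells. The part of width in these shares was not tested. Among 183 pairs of adjacent regions within 10 kb, both ranked lower in Wbp7-/- cells in 11 pairs, both higher in 21, and 1 lower and 1 higher in 18. What unrelated pairs would give was not counted, so nothing on joint movement of neighbours is read from these numbers.

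The other comparison asked how the order of these regions differed between the LPS-treated and the untreated library of each genotype. In both genotypes, 231 regions ranked at least 10 percentile points higher after LPS, which is 9.45% of the 2444 regions compared, and 225 (9.21%) ranked at least 10 points lower. The Wbp7+/- and Wbp7-/- comparisons share no library, and the LPS time of the Wbp7+/- one is in doubt. Movements of 10 points or more in opposite directions were seen at 50 and 32 regions. LPS differences of the genotypes had a Spearman correlation of 0.4 across the 2444 regions. With a shift of at least 20 points the numbers were 96 higher and 47 lower. Of the 814 regions of lowest mean rank, where 10 points can be a small score difference, 76 ranked higher and 67 lower by 10 points. In Wbp7-/- cells alone, where the LPS time is not in doubt, 510 regions ranked higher and 622 lower by 10 points or more, and in Wbp7+/- cells alone 490 and 507.

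Regions that ranked higher after LPS in both genotypes had median scores of 291.9 untreated and 641.0 after LPS in Wbp7+/- cells. In Wbp7-/- cells the medians were 144.4 and 448.4. The choice of these regions by rank difference favours such values. By the smaller of the differences in the 2 genotypes, the largest gain was at chr19:11631727-11634302, with scores of 88.46 untreated and 1764.37 after LPS in Wbp7+/- cells and of 115.36 and 2852.53 in Wbp7-/- cells. Its width went from 693 to 2290 bp and from 724 to 2576 bp. The region at chr4:129172595-129174729 went from 157.98 to 1639.17 in Wbp7+/- and from 83.44 to 1022.24 in Wbp7-/- cells. The one at chr7:108696009-108698482 went from 145.64 to 1265.47 and from 93.98 to 1317.17. All of these ranked from 4.4 to 18.3 in the untreated libraries and from 77.5 to 99.8 after LPS.

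At chr11:11736384-11738100 the scores went from 153.03 to 1296.44 in Wbp7+/- and from 55.65 to 1378.52 in Wbp7-/- cells. At chr14:59915550-59916488 they went from 228.13 to 1665.79 and from 144.41 to 1559.69, while the peaks stayed narrow, at 583 and 877 bp in Wbp7+/- and 266 and 829 bp in Wbp7-/- cells. Over the 10 largest gains, ranks were from 1.8 to 40.0 untreated and from 57.8 to 99.8 after LPS, a direction that the choice of the regions sets. In each of the 10 the peak was also wider after LPS in both genotypes. The factor was 1.1 to 3.3 in Wbp7+/- and 1.84 to 3.78 in Wbp7-/- cells, although width and score describe the same peaks. Of all 231 regions, 77.9% were wider after LPS in Wbp7+/- and 76.2% in Wbp7-/- cells. Among the 1988 regions in neither set the shares were 42.7 and 39.7%.

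**Figure D5:**
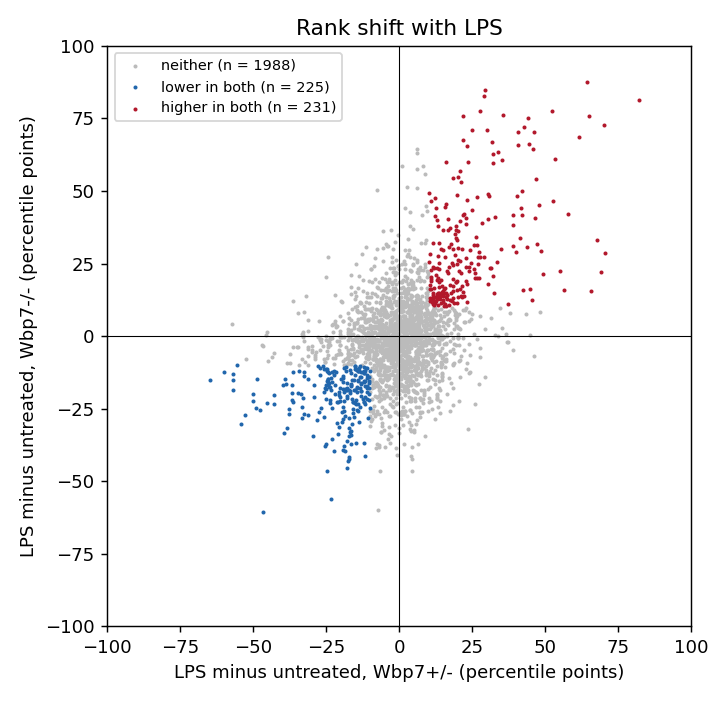
Difference in percentile rank by score between LPS-treated and untreated cells for each of the 2444 regions (points), in Wbp7+/- cells (x axis, percentile points) and in Wbp7-/- cells (y axis, percentile points). The 231 regions higher in both (red) reach 82.3 and 87.6 points, and the 225 lower in both (blue) extend less far.

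Among regions that ranked lower after LPS, the largest drop by the same measure was at chr5:134817572-134819013, from a score of 694.17 to 80.29 in Wbp7+/- and from 1066.90 to 119.06 in Wbp7-/- cells, with widths of 1361 and 970 bp and of 1437 and 1051 bp. The region at chr18:73922061-73922705 went from 421.96 to 51.20 and from 411.40 to 126.12. The one at chr7:87218178-87221218 went from 454.48 to 62.26 in Wbp7+/- cells and from 1397.36 to 347.39 in Wbp7-/- cells, and so stayed mid-ranked in the latter, at 53.3. The region at chr13:22135193-22136960, part of a run described above, went from 695.14 to 50.87 and from 1169.82 to 330.83. Over the 10 largest drops ranks were from 38.4 to 85.1 untreated and from 0.1 to 53.3 after LPS, a direction that the choice of the regions sets. Ranked by width in place of score, only 1 of these 10 regions dropped by 10 points or more in both genotypes, 7 dropped by less in at least 1 genotype, and 2 gained in at least 1.

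Fewer of the 2444 regions passed the width limit with LPS than with genotype. The peak was at least 1.5 times wider after LPS in both genotypes at 43 regions (1.76%, 1.31 to 2.36), close to the 1.62% of all 12294 shared regions and the 1.58% of ceiling regions (1.36 to 1.85). It was at least 1.5 times narrower in both at 22 regions (0.9%, 0.595 to 1.36), against 0.26% of all shared regions and 0.102% of ceiling regions (0.0552 to 0.187). Of the 43 regions, 30 also ranked higher by score, and their median widths went from 811 to 1797 bp in Wbp7+/- and from 886 to 1898 bp in Wbp7-/- cells. When every shared region was ranked by width among all 12294, 82 of the 2444 (3.36%) gained 10 points or more with LPS in both genotypes, against 4.4% of all shared regions, and 72 (2.95%) dropped, against 2.14%. The strongest narrowing with LPS was at chr19:5711438-5714711, from 3115 to 1169 bp in Wbp7+/- and from 2562 to 1032 bp in Wbp7-/- cells.

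Distances to regions called only after LPS were counted in the same way, with no test. A region called in the LPS-treated libraries of both genotypes but in no untreated one stood within 5 kb of 14 of the 231 that ranked higher after LPS (6.1%), of 2 of the 225 that ranked lower (0.9%) and of 9 of the 1988 others (0.5%). The ranks and the regions called only after LPS were read from the same 4 libraries. A ceiling region lay within 5 kb of 20.3% of the higher-ranked (15.7 to 26.0) and 23.6% of the lower-ranked regions (18.5 to 29.5). The share of all 2444 was 18.0% (16.5 to 19.5).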

How the data were processed

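Bowtie and mm9 are named in the submitters' processing notes, and peaks were called with MACS in each library separately, per the file headers, which carry the word input. No version, threshold or read number was found in the labels or headers. The authors deposited 1 peak list per library with a start, an end and a score per peak. Overlapping peaks were joined with bedtools 2.31.1, and values were computed with Python 3.11.15, pandas 2.3.3, numpy 2.4.6 and scipy 1.17.1 and drawn with matplotlib 3.10.9. A region's score in a list is that of its highest peak and its width the sum of its peaks. Regions were called moved past 10 percentile points of rank or a width ratio of 1.5 in both comparisons. The calling steps were tested on simulated data, built from shifted copies of 1 list with little added noise and a large planted drop. That cannot show how many moves of 10 points differences between libraries alone would give. The regions and rules were chosen with earlier results of these data known. Named regions were the 10 with the highest or lowest score, the widest, and those with the largest moves by the smaller of their 2 rank shifts; the leading ones are printed. Those with the largest changes of width and the runs of neighbours were chosen after their values were seen. With 1 library per group no test was made, and intervals (95% Wilson) cover counting error only. The start-site, base-composition and gene-list comparisons planned need the genome or annotation of mm9 and were not run, since the tables at hand are on GRCm38.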

Additional observations from a re-analysis of the deposited data

Results flagged for a closer look

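Among the regions below the ceiling, some moved by at least 10 percentile points in opposite directions in the groups compared, and these differences were not tested, since each group held 1 library. After LPS, 50 regions gained rank in Wbp7+/- cells but lost rank in Wbp7-/- cells. The clearest lay at chr6:120420951-120423403, which went from 275.89 to 484.94 in Wbp7+/- and from 228.47 to 68.45 in Wbp7-/- cells. At 32 regions (1.31%) the reverse was seen, led by chr2:71174570-71176954, which went from 273.11 to 62.75 in Wbp7+/- and from 233.55 to 522.41 in Wbp7-/- cells. Between genotypes, 34 regions (1.39%) ranked lower in Wbp7-/- cells when untreated and higher after LPS. The clearest, chr17:27961968-27964513, scored 2224.24 in untreated Wbp7+/- cells and from 240.21 to 452.94 in the other 3 libraries. The reverse held at 40 regions (1.64%), led by chr9:15198434-15199794, whose 4 scores were from 60.35 to 228.27.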

How the results depend on the processing

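Of 33 alternative counts, 22 stayed within 1.5 times the reported one. The number of regions below the ceiling was 1697 to 2901 under its 5 alternatives. Ranked by width, the regions lower in Wbp7-/- cells numbered 349 and those higher 323, of which 260 and 233 were also called by score. For LPS, 77 of the 231 higher and 34 of the 225 lower regions were also called by width. A shift of 20 points gave 367 regions higher in Wbp7-/- cells and 96 higher and 47 lower with LPS. A width ratio of 2 gave 20 narrower and 23 wider in Wbp7-/- cells and 14 wider and 4 narrower with LPS. These are parts of the reported sets. Leaving out the LPS-treated Wbp7+/- list, chosen after seeing the data, kept 556 of the 601 and 536 of the 639 genotype calls. Both Wbp7-/- lists are then set against the same untreated Wbp7+/- list, so the 2 differences share a library and the LPS-treated one mixes genotype with LPS. For LPS it leaves the Wbp7-/- lists alone, with 510 higher and 622 lower. Ranked by width, 7 of the 10 regions named for a drop in Wbp7-/- cells, 8 of 10 for a gain there and 9 of 10 for a gain with LPS kept a shift of 10 points in both comparisons, but only 1 of 10 for a drop with LPS, where 7 fell short of it. At 3 named regions the shift changed sign in 1 of their 2 comparisons. It became 2.4 points for the drop on chromosome 8 from 47771857, and 5.6 and 16.9 for the LPS drops on chromosomes 13 and 12. In the other comparison their peaks narrowed, with width ratios of 0.54, 0.7 and 0.82, and the cause was not tested. No paired analysis was possible because each group held 1 library, with no second replicate number to pair, and the results come from no test. Genotypes were compared within each treatment. Read depth is unknown and limits every score and missing peak.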
